A study of Homo sapiens with 6 samples.

Results

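Keratins and desmosome genes were followed in A549 cells, an established human lung adenocarcinoma line, after lowering of HNRNPD. The 10 genes were chosen by name out of 56303 rows of the deposited count table. They comprise the type II keratins KRT7, KRT8, KRT80 and KRT81, the type I keratins KRT18 and KRT19, and the desmosome genes DSP, JUP, PKP2 and DSG2. HNRNPD encodes AUF1, a protein that binds RNA at AU-rich stretches of 3' untranslated regions (3' UTRs). One group received an siRNA against HNRNPD (3 libraries) and the other a negative-control siRNA (3 libraries). Both groups were A549 with no other agent named, and the labels give no time after transfection and no siRNA sequence. They do not say that the libraries came from separate cultures, so p-values reflect no more than library-to-library spread, which may be technical. In such bulk RNA, fewer cells of a type and less RNA per cell cannot be told apart.

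Keratins are the intermediate filament proteins of epithelial cells, and each filament is built from pairs of 1 type I and 1 type II chain. KRT8 and KRT18 form the basic pair of simple epithelia such as the lining of the lung, where KRT7 and KRT19 are also made. Desmosomes are the junctions that hold these filaments at the cell border. In them the cadherin DSG2 spans the membrane, plakoglobin (JUP) and plakophilin 2 (PKP2) form the inner plaque, and desmoplakin (DSP) links the plaque to the keratins.

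The libraries held 37151094 to 40462117 counts after HNRNPD siRNA and 42607632 to 43005090 in control cells. HNRNPD itself had 177, 163 and 168 CPM in the HNRNPD siRNA libraries, against 965, 943 and 942 CPM in the control libraries, which matches the labels in all 6. CPM are counts scaled to a common library total, here after TMM, a correction for differences in RNA composition. Groups were compared with edgeR's quasi-likelihood test over 20465 genes, and a gene is called at a Benjamini-Hochberg adjusted p under 0.05. By this rule 56.1% of all tested genes were called, 28.4% as higher and 27.8% as lower, so a call alone sets no gene apart. DESeq2 called 53% and limma-voom 56%, and both made the same calls for the 10 genes. The epithelial markers EPCAM, CDH1, CLDN4, ELF3 and ESRP1 summed to 131.3 to 146.5 CPM after HNRNPD siRNA and 152.9 to 163 CPM in control cells. Of these 5 genes EPCAM was called higher and ELF3 lower. Of 5 alveolar type 2 markers NKX2-1, SFTPC and SFTPB reached at most 0.05, 0.188 and 0.275 CPM, while LAMP3 was called higher (31.0 CPM after HNRNPD siRNA and 0.432 CPM in control cells). ABCA3, the only other one tested, was not called (29.26 CPM after HNRNPD siRNA and 28.25 CPM in control cells). The 5 summed to 52 to 77.1 CPM after HNRNPD siRNA and 27.8 to 30.2 CPM in control cells, a difference that lay mainly in LAMP3. The 7 squamous or basal markers summed to 15.4 to 19.3 CPM after HNRNPD siRNA and 14.4 to 14.7 CPM in control cells, with KRT14 and DSG3 at most 0.0955 and 0.0477 CPM. Of the 4 that could be tested, DSC3 and TP63 were called higher. TP63 had a log2 fold change of 0.50 (edgeR adjusted p = 0.0276), and its call was lost without HNRNPD siRNA replicate 1 (0.165) or control replicate 2 (0.0601) or 3 (0.121). The fibroblast markers summed to 6.61 to 8.08 CPM after HNRNPD siRNA and 4.89 to 5.99 CPM in control cells, with COL1A1 called higher, a call lost without HNRNPD siRNA replicate 1 (edgeR adjusted p = 0.0655) or control replicate 3 (0.113). The endothelial markers summed to 0.2 to 0.501 CPM after HNRNPD siRNA and 0.282 to 0.358 CPM in control cells, and the leukocyte markers PTPRC, CD3E and LYZ each reached at most 0.0477 CPM in any library. MX1, an antiviral gene induced by interferon and named after its values were seen, had 1168, 898 and 1595 CPM after HNRNPD siRNA against 2.63, 2.80 and 1.62 CPM in control cells. The part of these differences in the results that follow was not tested.

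The 3' UTRs of the 10 mRNAs differ in AU-rich sequence, the feature HNRNPD is known for. In the principal GENCODE 29 transcript of each gene, the pentamer ATTTA, with T for the U of RNA, was searched on the sense strand. It was absent from KRT7, KRT8, KRT18, KRT80, KRT81 and JUP, occurred 1 time in KRT19 and 3 times in DSP, and occurred 7 times in DSG2 and 8 times in PKP2. All 3 sites of DSP, the only site of KRT19, and 1 site each of DSG2 and PKP2 are printed as examples, 5′ to 3′ on the transcribed strand, with the pentamer in capitals and 10 bases on either side (GRCh38).
DSP at chr6:7585904-7585928, plus strand: ccttgacttcATTTAtatgaatttc
DSP at chr6:7586579-7586603, plus strand: ttgtgttttaATTTAatatgtttat
DSP at chr6:7586608-7586632, plus strand: atgtataaacATTTAgcatattttt
KRT19 at chr17:41523619-41523643, minus strand: gccaataaaaATTTAtggtccaagg
DSG2 at chr18:31548814-31548838, plus strand: atcataaaatATTTAaataaaaagt
PKP2 at chr12:32791823-32791847, minus strand: aacttaagaaATTTAgattacagag

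A match is only a run of letters, and whether HNRNPD binds there was not measured. The 3' UTRs were short in most keratins, with 59 bases in KRT18, 126 in KRT19, 161 in KRT7, 241 in KRT8 and 342 in KRT81. In 3' UTRs of 0.8 to 1.25 times those lengths, the pentamer was found in 8.1% of genes for KRT18, 19.8% for KRT19, 22.6% for KRT7, 31.9% for KRT8 and 41.1% for KRT81. KRT80, with 2402 bases, and JUP, with 1140 bases, lacked it although 93.4% and 78.9% of genes of like length had it. DSP has 839 bases, DSG2 2265 and PKP2 1679, and at least as many pentamers as theirs stood in 28.2%, 32.2% and 11% of genes of like length.

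All 6 keratins fell after HNRNPD siRNA. Of the desmosome genes, DSP rose 1.57-fold, DSG2 rose 1.13-fold, JUP fell 1.33-fold and PKP2 was not called. All 10 passed the filter on low counts, and 7 were lower and 2 higher, against 27.8% lower and 28.4% higher among all tested genes. Their median log2 fold change was -0.36, and that of the 6 keratins was -0.66, against 0.01 for all genes tested. The libraries of the 2 groups did not overlap for 9 of the 10, PKP2 being the exception, against 62.6% of all tested genes.

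**Figure D1:**
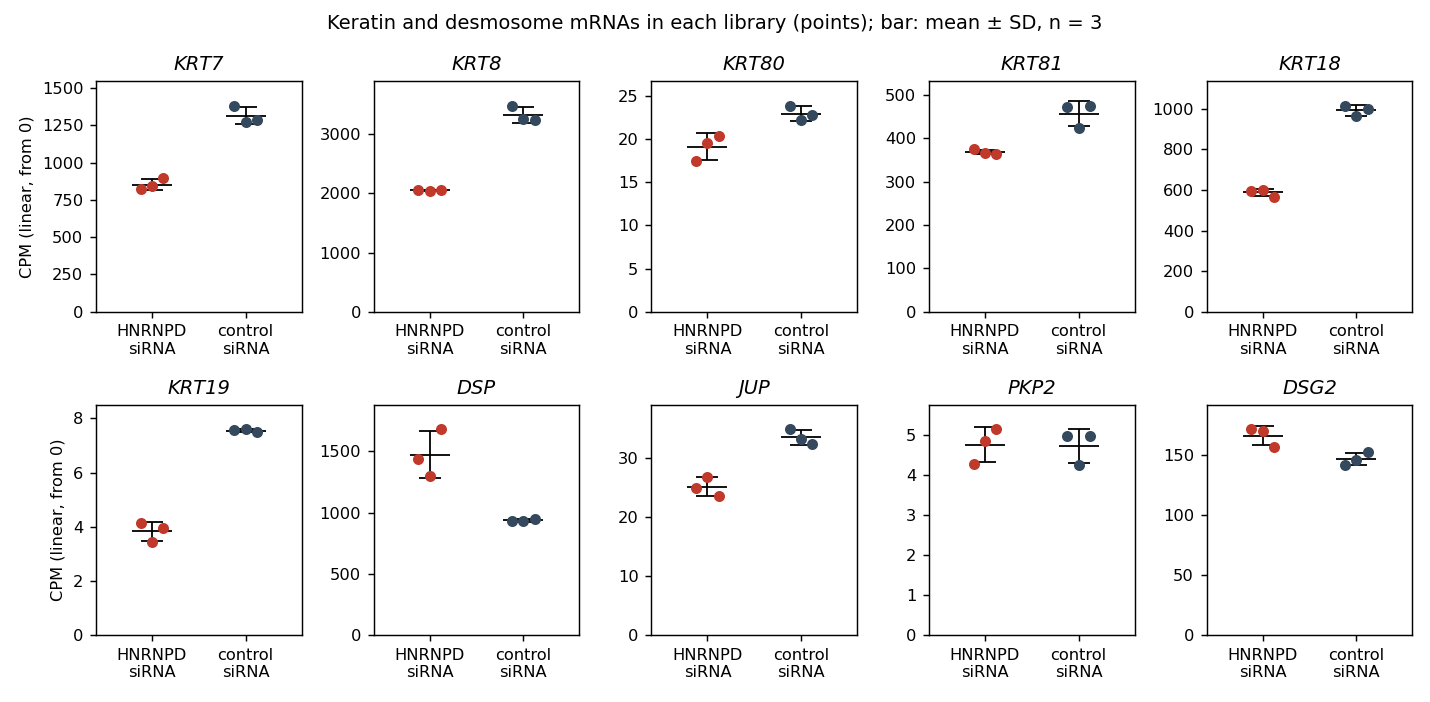
Level of each gene in CPM (vertical axis, linear from 0) in the HNRNPD siRNA libraries (left, red) and the control siRNA libraries (right, dark). Points are single libraries and bars are the mean ± SD of 3. The red points lie below the dark ones for all 6 keratins and JUP, above them for DSP and DSG2, and among them for PKP2.

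KRT8 was the most abundant of the 10. It had 2056, 2043 and 2065 CPM after HNRNPD siRNA, against 3482, 3257 and 3242 CPM in control cells. The HNRNPD siRNA libraries lay close together, all below the lowest control library. The log2 fold change was -0.70 (SE 0.06, edgeR adjusted p = 1.76e-08). Its partner KRT18 had 597, 599 and 567 CPM after HNRNPD siRNA, against 1015, 964 and 1000 CPM in control cells. Every HNRNPD siRNA library was again below every control library, at a log2 fold change of -0.76 (SE 0.06, adjusted p = 2.98e-09 in edgeR). By mean CPM, KRT8 ranked 39 among all genes after HNRNPD siRNA and 24 in control cells.

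KRT7, the other abundant type II keratin of glandular and lung epithelium, had 822, 841 and 895 CPM after HNRNPD siRNA. In control cells it had 1382, 1276 and 1287 CPM. The groups were separate, and the fall was 1.54-fold (log2 fold change -0.63, SE 0.06, edgeR adjusted p = 7.99e-08). KRT81, a hair-type keratin known to be made in some carcinoma cells, had 375, 368 and 364 CPM after HNRNPD siRNA, against 472, 424 and 476 CPM in control cells. Its fall was smaller, at 1.24-fold (95% interval of the log2 fold change -0.44 to -0.18), and the intervals of KRT7 (-0.75 to -0.50) and KRT8 (-0.82 to -0.57) lie wholly below it. A test between the genes was not made.

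The scarce keratins also fell. KRT19, a small type I keratin without a tail domain, had 4.12, 3.44 and 3.95 CPM after HNRNPD siRNA, against 7.56, 7.59 and 7.49 CPM in control cells. The log2 fold change (-0.98, SE 0.12, edgeR adjusted p = 2.01e-06) was the furthest from 0 among the 10 and rested on 144 to 158 counts per HNRNPD siRNA library. KRT80, a type II keratin found near cell borders, had 17.4, 19.5 and 20.4 CPM after HNRNPD siRNA, against 23.9, 22.2 and 22.8 CPM in control cells. The groups came near each other without overlap, and the log2 fold change was -0.26 (SE 0.08, edgeR adjusted p = 0.00881).

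**Figure D2:**
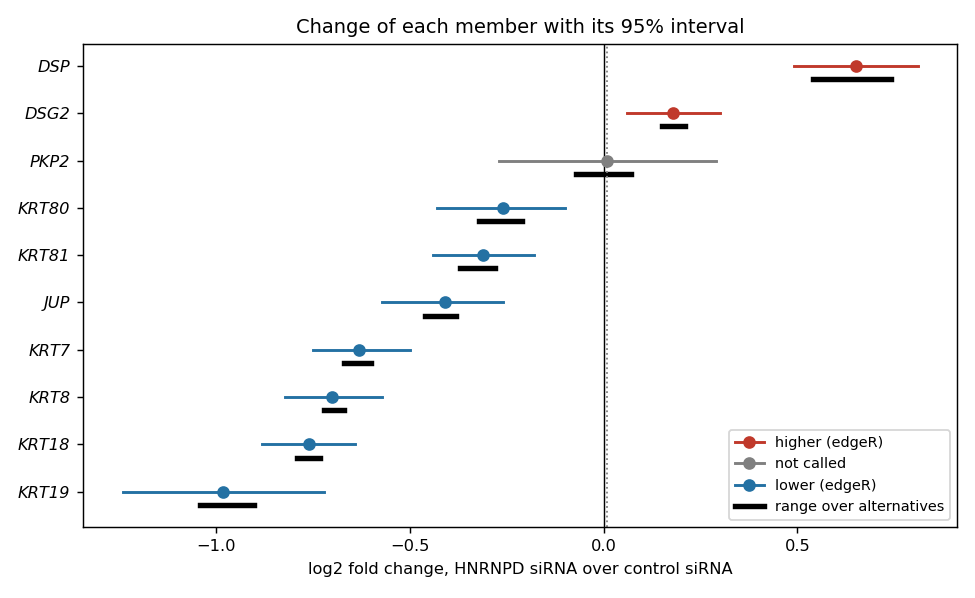
Log2 fold change of each gene, HNRNPD siRNA over control siRNA (horizontal axis), with its 95% interval from edgeR (coloured line) and, below it, the range over 16 other ways of processing the counts (black bar). The dotted line is the median of all tested genes (0.01). The 6 keratins and JUP lie wholly below 0, DSP and DSG2 above, and PKP2 across it.

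Because chains pair, the balance of the keratins was compared per length, as CPM per 1000 bases of exon as deposited. The 6 keratins summed to 885, 885 and 890 on that scale after HNRNPD siRNA, against 1412, 1313 and 1351 in control cells. They took 0.379% to 0.401% of all counts after HNRNPD siRNA and 0.589% to 0.637% in control cells. The ratio of KRT8 to KRT18 was 1.61, 1.6 and 1.70 after HNRNPD siRNA, against 1.6, 1.58 and 1.52 in control cells. These values overlap, and the mean difference of the log2 ratio was 0.06 (exact two-sided permutation test, p = 0.2, where 0.1 is the smallest p that 3 against 3 allows).

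The ratio of all 4 type II to both type I members was 3.73, 3.72 and 4.0 after HNRNPD siRNA, against 3.43, 3.34 and 3.30 in control cells. The groups did not overlap, and the mean log2 ratio was 0.18 higher after HNRNPD siRNA (exact two-sided permutation test, p = 0.1, the smallest possible here). KRT81, which fell less than KRT8, made up 21.95%, 21.5% and 21.2% of the keratin sum after HNRNPD siRNA, against 17.3%, 16.75% and 18.2% in control cells. Deposited lengths join the exons of all transcripts, so KRT8 counts as 6881 bases where its principal transcript has 2126. With principal transcript lengths, a setting chosen after seeing the data, the ratio of KRT8 to KRT18 was 2.51 to 2.68 after HNRNPD siRNA and 2.38 to 2.52 in control cells, and KRT81 took 9.25% to 9.62% of the sum after HNRNPD siRNA and 7.08% to 7.81% in control cells. The ratio of type II to type I members was then 4.24 to 4.58 after HNRNPD siRNA and 3.89 to 4.09 in control cells, still without overlap, and the mean difference of its log2 value was 0.126 in place of 0.18. The levels and summed ratios thus depend on the length used, while the change of a single gene does not.

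**Figure D3:**
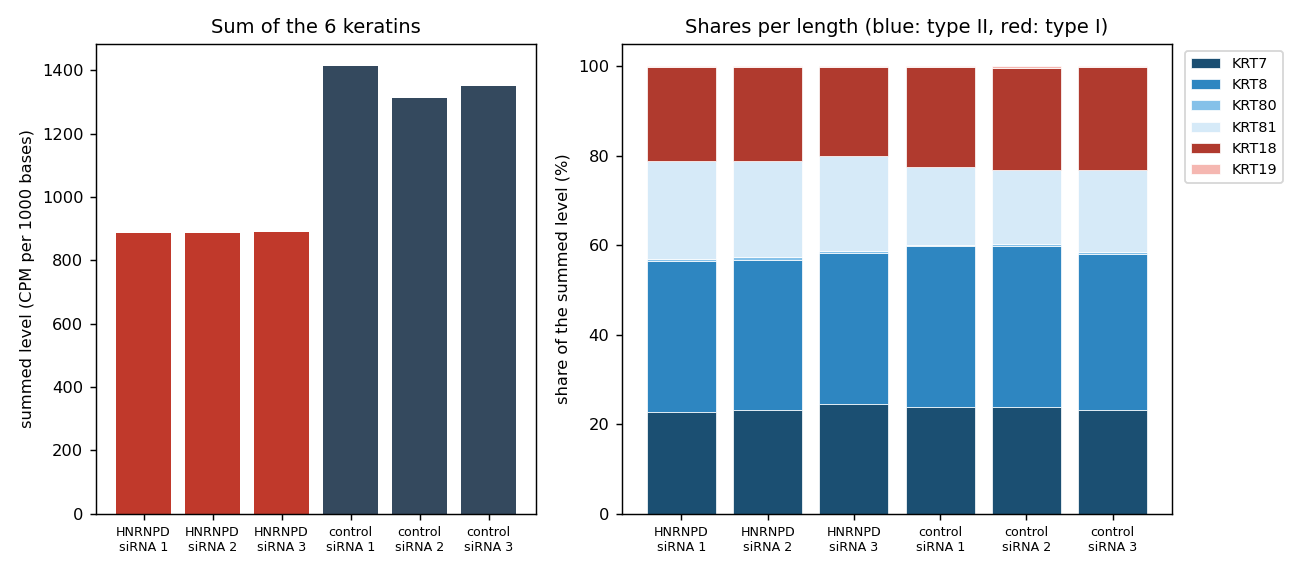
Left, summed level of the 6 keratins in each library (CPM per 1000 bases, linear from 0), with HNRNPD siRNA libraries in red and control libraries dark. Right, share of that sum held by each keratin (%), type II in blues and type I in reds. The sum is 885 to 890 after HNRNPD siRNA and 1313 to 1412 in control cells, and the palest blue band (KRT81) is wider after HNRNPD siRNA.

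DSP, the linker, went the other way from the keratins it binds. It had 1442, 1302 and 1679 CPM after HNRNPD siRNA, against 931, 929 and 953 CPM in control cells. All HNRNPD siRNA libraries were above all control libraries, and they differed more among themselves (coefficient of variation 12.9%, against 1.40% in control cells). Replicate 3 was highest and replicate 2 lowest, as they were for MX1, a likeness of 3 libraries whose part in the result was not tested. The log2 fold change was 0.65 (SE 0.08, edgeR adjusted p = 1.31e-06), and 0.54 without HNRNPD siRNA replicate 3, which was the highest. DSG2, the desmosomal cadherin of simple epithelia, had 171, 170 and 157 CPM after HNRNPD siRNA, against 142, 145 and 152 CPM in control cells. The lowest HNRNPD siRNA library stood just above the highest control library. The log2 fold change, at 0.18 with an SE of 0.06, was called (edgeR adjusted p = 0.015). That call was lost without HNRNPD siRNA replicate 1 (adjusted p = 0.0703 in edgeR) or 2 (0.0542), or without control replicate 1 (0.0925) or 2 (0.0699).

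In the plaque, JUP had 24.9, 26.8 and 23.6 CPM after HNRNPD siRNA, against 34.8, 33.2 and 32.3 CPM in control cells. JUP is shared between desmosomes and adherens junctions, and its groups were separate (log2 fold change -0.41, SE 0.07, edgeR adjusted p = 8.07e-05). PKP2 had 4.29, 4.87 and 5.15 CPM after HNRNPD siRNA, against 4.98, 4.25 and 4.98 CPM in control cells. These values overlap, and the log2 fold change was 0.01 with a 95% interval of -0.27 to 0.29, which leaves room for a change of about the size seen for DSG2 or KRT80. Per length, DSG2, PKP2 and JUP together stood at 0.233, 0.260 and 0.185 of DSP after HNRNPD siRNA, against 0.332, 0.334 and 0.337 in control cells. The groups did not overlap, with a mean log2 difference of -0.58 (exact two-sided permutation test, p = 0.1, the smallest possible). It was -0.44 without HNRNPD siRNA replicate 3.

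Reads of near-identical copies or of overlapping genes could be misplaced for some of these genes. The treatment of multiply matching reads is not stated. Of the 75-base stretches of the principal transcript, 36.6% in KRT81, 25.5% in KRT18, 18.7% in KRT8 and 9% in KRT7 also occur in transcripts of other genes on either strand, against 0% in KRT19, KRT80, DSP and JUP. For KRT18 most are shared with KRT8 (19.7%), whose annotated exons overlap its own on the opposite strand. For KRT7 all 9% are shared with KRT7-AS. The copies summed below do not cover these stretches. For KRT81 most are shared with KRT86, another hair keratin. KRT86 had 5.55, 4.32 and 3.20 CPM after HNRNPD siRNA, against 4.18, 3.43 and 4.74 CPM in control cells, and was not called. The 50 pseudogene rows of KRT8 summed to 31.2, 34.6 and 37.9 CPM after HNRNPD siRNA, against 43.2, 39.9 and 41.4 CPM in control cells, and the 67 of KRT18 to 3.79 to 4.15 and 3.38 to 3.91 CPM. Adding the copies to their parents gave log2 fold changes of -0.69 for KRT8, -0.75 for KRT18, -0.97 for KRT19 and -0.31 for KRT81.

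The genes lie in a few neighbourhoods of the genome (GRCh38, as the table gives them). KRT80 (52168996 to 52192000), KRT7 (52232520 to 52252186), KRT81 (52285913 to 52291534), KRT8 (52897187 to 52949954) and KRT18 (52948871 to 52952901) all lie in the type II keratin cluster of chromosome 12, where KRT18 is the only type I gene. KRT8 and KRT18 are on opposite strands and their annotated exons share a fraction of 0.163 of the exonic bases of KRT18, so counts there are not assigned to either with certainty. PKP2 is elsewhere on chromosome 12 (32790745 to 32896840). KRT19 (41523617 to 41528308) and JUP (41754604 to 41786931) are close to each other on chromosome 17, DSP is on chromosome 6 (7541575 to 7586717) and DSG2 on chromosome 18 (31498043 to 31549008).

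Most of the rest of the keratin family was too scarce to test. Of 26 other type I keratins 4 could be tested, with 1 higher and 1 lower, and of 22 other type II keratins 5 could be tested, with 0 higher and 1 lower (edgeR). For these and the lists below, the shares among all tested genes were 28.4% higher and 27.8% lower. KRT15, a basal-cell keratin, fell 4.80-fold, with 0.66, 0.716 and 0.55 CPM after HNRNPD siRNA against 3.38, 3.08 and 2.81 CPM in control cells (edgeR adjusted p = 4.82e-08). KRT4, a keratin of mucosal epithelium, fell 4.7-fold, with 0.22, 0.143 and 0.225 CPM after HNRNPD siRNA against 1.03, 0.514 and 1.24 CPM in control cells (edgeR adjusted p = 0.000207). KRT17, known to be induced in stressed epithelium, rose 6.31-fold, with 0.77, 0.978 and 2.15 CPM after HNRNPD siRNA against 0.188, 0.28 and 0.143 CPM in control cells (edgeR adjusted p = 5.64e-05). KRT10 averaged 3.25 CPM after HNRNPD siRNA and 3.98 CPM in control cells. Neither KRT10 (log2 fold change -0.29) nor KRT13 (-0.48) was called. KRT5 had -0.78 and was called only without HNRNPD siRNA replicate 3 (edgeR adjusted p = 0.0302, log2 fold change -1.605).

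Of 11 other desmosome genes, 6 could be tested, with 3 higher, 2 lower and the list's median at 0.34 (log2). PERP, a membrane protein of desmosomes, rose 1.40-fold to 51.2 CPM, against 36.5 CPM in control cells. CDSN (corneodesmosin) rose 2.0-fold. The cadherin DSC3 rose 1.34-fold, a call lost without HNRNPD siRNA replicate 1 (edgeR adjusted p = 0.0534). PKP4, a relative of the plakophilins, fell 1.38-fold to 41.5 CPM, against 57.2 CPM in control cells. DSC2, the usual partner of DSG2, was named after its values were seen. It had a mean of 23.5 CPM after HNRNPD siRNA and 26.5 CPM in control cells, which was called lower (edgeR adjusted p = 0.0456). The call did not survive 9 of 16 other settings, among them the fits without HNRNPD siRNA replicate 2 (edgeR adjusted p = 0.101) or 3 (0.0605) or without control replicate 1 (0.0897) or 3 (0.147). The epidermal genes DSG1, DSG3, DSG4, DSC1 and PKP1 were too scarce to test.

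**Figure D4:**
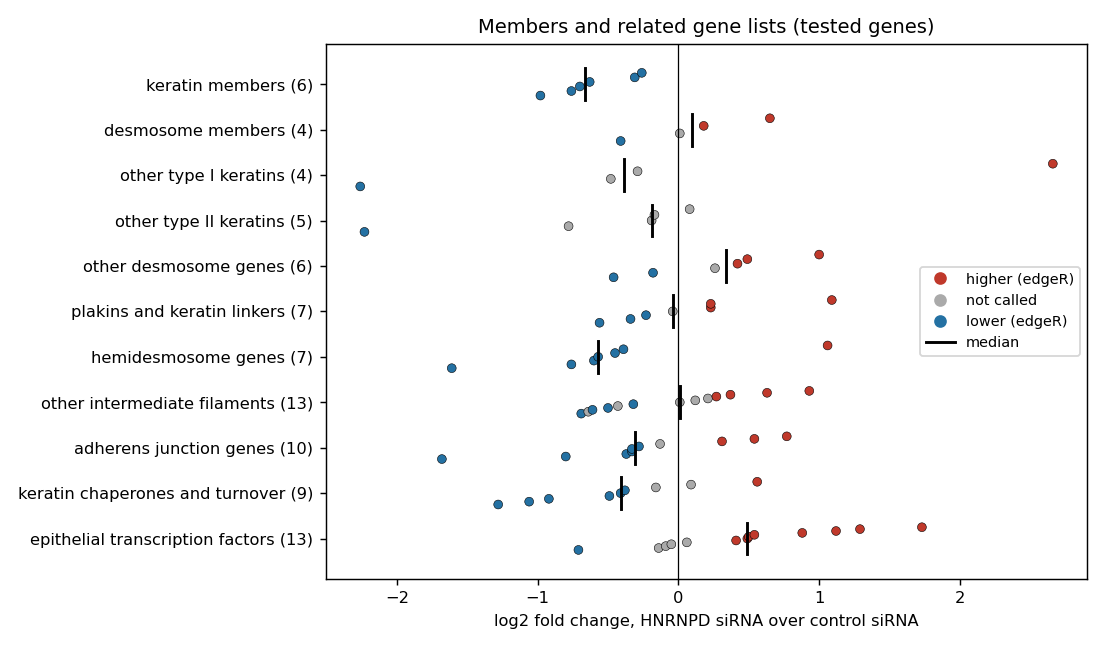
Log2 fold change of each tested gene, HNRNPD siRNA over control siRNA (horizontal axis), for the keratin and desmosome genes described here and for related gene lists (rows, with the number of tested genes). Red points were called higher, blue lower and grey not called, and black ticks are medians. All 6 keratins are blue, while the 4 desmosome genes are spread on both sides of 0.

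Other proteins that tie keratins to membranes were split. Of 7 tested plakins and keratin linkers, 3 were higher and 3 lower (list median -0.04, log2). Among all tested genes 28.4% were higher and 27.8% lower, so a split in so short a list says little. Among them PLEC (plectin), at 2663 CPM after HNRNPD siRNA and 2273 CPM in control cells, rose 1.17-fold, a call lost without control replicate 1 (edgeR adjusted p = 0.0539) or 3 (0.0941). EVPL (envoplakin) rose 1.17-fold, whereas DST (dystonin) fell 1.47-fold, MACF1 1.27-fold and TCHP (trichoplein, a keratin-binding protein) 1.17-fold. In the hemidesmosome, which ties keratins to the basement membrane, the integrin subunit ITGB4 fell 3.05-fold, its partner ITGA6 1.37-fold, LAMA3 1.70-fold and CD151 1.31-fold. LAMB3, named after its values were seen, fell 1.49-fold, a call lost in 5 of 16 other settings, among them the fits without HNRNPD siRNA replicate 2 (edgeR adjusted p = 0.109) or control replicate 1 (0.0804), 2 (0.0985) or 3 (0.0939). The hemidesmosome collagen COL17A1, also named after its values were seen, rose 2.09-fold (2.76 CPM after HNRNPD siRNA and 1.32 CPM in control cells).

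Other intermediate filament genes moved both ways, with 4 higher and 4 lower of 13 tested (list median 0.01, log2). These counts are near the shares of all tested genes (28.4% higher and 27.8% lower), whose median was also 0.01. VIM (vimentin), the mesenchymal filament gene that A549 also expresses, fell 1.52-fold to 79.8 CPM, against 121.6 CPM in control cells. SYNM (synemin) rose 1.90-fold and the nuclear lamin gene LMNA 1.29-fold, while LMNB1 fell (log2 fold change -0.32), LMNB2 rose 1.21-fold and the neurofilament gene NEFL fell 1.61-fold. In the adherens junction, 3 genes were higher and 6 lower of 10 tested, with a median of -0.30. CTNNA1, CTNNB1 and CTNND1, which encode catenins of the E-cadherin complex, fell 1.30-fold, 1.26-fold and 1.26-fold, and VCL (vinculin) fell 1.74-fold. NECTIN2 rose 1.46-fold and MLLT4, which encodes afadin, 1.24-fold. CDH1 (E-cadherin), at -0.13 (log2), was called only without HNRNPD siRNA replicate 1 (edgeR adjusted p = 0.00858, log2 fold change -0.23).

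Of 9 genes for keratin chaperones and binding partners, 6 were lower and 1 higher (list median -0.41, log2). SFN, a 14-3-3 protein, fell 2.43-fold, and the 14-3-3 genes YWHAE and YWHAZ fell 1.40-fold and 1.33-fold. HSPB1, a small heat shock protein, fell 2.08-fold and the autophagy receptor SQSTM1 1.89-fold, while the chaperone HSPA8 rose 1.47-fold. DNAJB6, at 0.09 (log2), was not called. Of 13 tested genes in a list of transcription factors and splicing regulators, 8 were higher and 1 lower, with a median of 0.49. The list joins epithelial regulators with the general factors SP1, JUN and FOS, which were all called higher. FOS was near the threshold (edgeR adjusted p = 0.0485), and its groups overlapped. KLF4 rose 2.17-fold, KLF5 1.40-fold and SP1 1.33-fold, while ELF3 fell 1.64-fold.

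Set beside the 3' UTRs, the 3 genes with several pentamers (DSP, DSG2 and PKP2) had log2 fold changes of 0.65, 0.18 and 0.01. The 6 without any ran from -0.76 for KRT18 to -0.26 for KRT80, and KRT19 with its single pentamer stood at -0.98. Among the tested genes with a principal protein-coding transcript in GENCODE 29, the medians showed no such order. These are only part of the 20465 genes tested, so the shares below are not those of all tested genes. The median log2 fold change was -0.02 for 4202 genes with no pentamer, -0.01 for 2247 with 1, -0.05 for 2424 with 2 to 3, -0.04 for 1868 with 4 to 6 and -0.04 for 2704 with 7 or more. The share called higher was 30.3%, 29.1%, 28.3%, 30.7% and 28.8% in these classes, and the share called lower was 31.6%, 32.2%, 34.4%, 34.7% and 36.1%, which increased with the number of pentamers. In 3' UTRs of like length to that of DSP, 30.9% of genes with a pentamer and 30.8% of genes without one were called higher, and 30.9% with and 34.8% without were called lower. For lengths like that of DSG2, 31.7% with and 27.6% without were called higher, and 35% with and 33.3% without lower. For lengths like that of PKP2, 29% with and 28.7% without were called higher, and 34.7% with and 31.2% without lower.

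**Figure D5:**
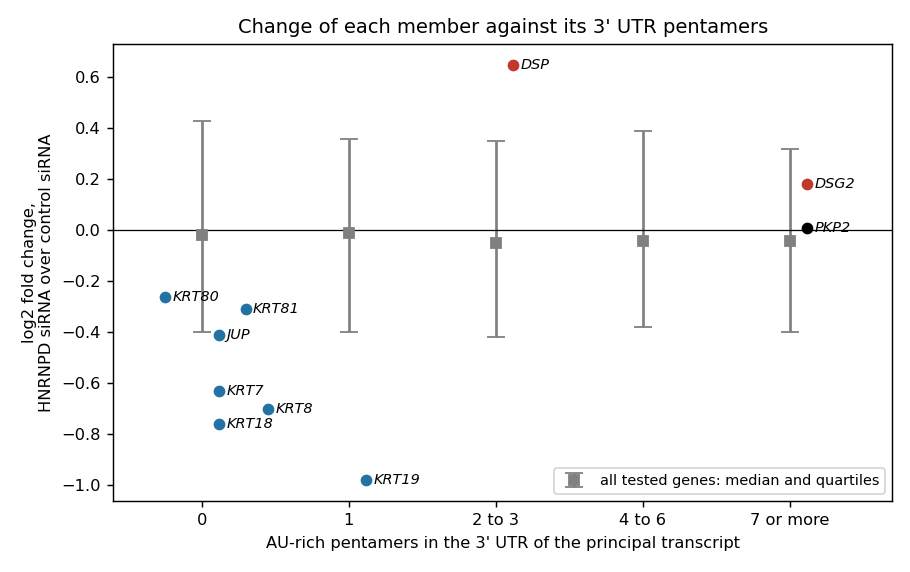
Log2 fold change, HNRNPD siRNA over control siRNA (vertical axis), against the number of AU-rich pentamers in the 3' UTR (horizontal axis, in classes). Coloured points are the 10 genes (blue lower, red higher, black not called). Grey squares with bars are the median and quartiles of the tested genes with a principal protein-coding transcript, which the legend calls all tested genes. Points are shifted sideways within a class for legibility. Genes with several pentamers lie at or above 0, while the grey medians stay between -0.05 and -0.01.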

How the data were processed

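The authors deposited 1 table of whole-number read counts per gene, with exon coordinates and a length. Per the submitters' processing notes, the tools include Bowtie 0.12.2 and the genome builds are GRCh38 and mm8, whose roles are not stated. How reads were counted (program, annotation, strand, multiply matching reads) was not given in the sources used here. Per the labels, Trizol RNA went into TruSeq libraries. Even numbers made up 66.2% to 69.5% of counts from 1 to 20 and 50.6% to 51.7% of larger counts (above 200), as happens if mates of a pair count separately.

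Counts were analysed with edgeR 4.0.16 in R 4.3.3 (filterByExpr, TMM, robust quasi-likelihood fit, group as the only term), which was tested on simulated data, and p-values were adjusted over all 20465 tested genes. The biological coefficient of variation was 8.3%. Standard errors were derived from the F statistic of each fold change. DESeq2 1.42.0 and limma-voom (limma 3.58.1) were alternatives. Replicates differed beyond sampling noise (chi-square per degree of freedom 6.63 to 27.67), so none was a repeated deposit. Ratios were tested with scipy 1.17.1. The principal transcript is the best-ranked APPRIS principal one in GENCODE 29 and, among equals, that with the longest coding sequence.

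Genes named are the 10 members, HNRNPD, the copies of KRT81, and of each list the 4 with the smallest p and those with a mean of at least 50 CPM. For KRT18 and DSP they include the 5 protein-coding genes of at least 5 CPM with the nearest profile. The members and lists were chosen with earlier results of these data known. Some genes of the lists are not reported here.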

Additional observations from a re-analysis of the deposited data

How the results depend on the processing

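Over 16 alternatives (scaling, filter, test, halved counts, summed copies, no mitochondrial rows, a replicate block and 6 fits without 1 library), 7 of the 10 genes were lower in each. The number higher ran from 1 to 2 without single libraries, as DSG2 lost its call. Calls over all genes ran from 5125 to 5965 higher and 5049 to 5926 lower. Among genes not called, log2 fold changes crossed 0: over the fits without 1 library PKP2 ran from -0.070 to 0.07 (-0.053 without HNRNPD siRNA replicate 3, -0.004 without 2), KRT13 from -0.814 to 0.407, KRT85 from -0.501 to 0.174, KRT86 from -0.140 to 0.249 (-0.047 without control replicate 2), ABCA3 from -0.009 to 0.092 and PPL from -0.177 (called) to 0.019. PKP2 was at -0.011 with no filter. With at least 1 CPM in 3 libraries, 0 other type I keratins were higher and 0 other type II keratins lower, since fewer were tested. With no filter 2 other type II keratins were lower, and without single libraries 1 to 3. Other desmosome genes called lower numbered 1 instead of 2 (without DSC2) with library totals only, at least 1 CPM in 3 libraries, DESeq2, counts divided by 2 and the replicate block, and 1 to 2 without single libraries. Genes called higher in the list of epithelial and general factors ran from 5 to 8 without single libraries. The cause was not tested.

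The labels do not say whether same-numbered libraries were paired. Their deviations from the group means had correlations of 0.049, 0.019 and 0.005, which show no pairing but cannot settle that there was none. With the replicate block 5792 genes were higher and 5737 lower. Low counts limit KRT19 and PKP2 most.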

Other observations

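Genes with profiles like those of KRT18 and DSP were looked up among 9621 other genes that code for protein and averaged 5 CPM or more. The measure was the root mean square difference of centred log2 CPM over the 6 libraries, of which smaller means more alike. Nearest to KRT18 were RAB5B (0.0156), HK1 (0.0161), RHOA (0.0198), AK4 (0.0204) and SIRPA (0.0274), against 0.0493 for KRT8 and 0.0929 for KRT7, and 454 genes lay under 0.1. RHOA, a small GTPase of the actin cytoskeleton, had 49.2 CPM after HNRNPD siRNA and 82.4 CPM in control cells. Nearest to DSP were SAR1A (0.0206), ZNF473 (0.0272), BAZ2A (0.0324), ETV3 (0.0341) and ZRSR2 (0.0377), and 196 genes lay under 0.1. BAZ2A, a chromatin protein of ribosomal genes, had 412.3 CPM after HNRNPD siRNA and 268.5 CPM in control cells. With so many genes this close, likeness over 6 libraries in 2 groups singles out none of them.

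Neighbours of the members were mostly silent. From KRT80 to KRT18 on chromosome 12 there are 22 other protein-coding genes, of which 5 could be tested and 1, KRT4, was lower (edgeR). From KRT19 to JUP on chromosome 17 there are 7 others, of which 3 could be tested. HAP1, which encodes a partner of huntingtin and was named after its values were seen, had 5.36 CPM after HNRNPD siRNA and 29.45 CPM in control cells (log2 fold change -2.46, edgeR adjusted p = 7.01e-13). The translation factor gene EIF1 had a log2 fold change of -0.50, and KRT17 rose as given above.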
